A study of Mus musculus with 20 samples.

Results

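The 4 genes that encode myosin light chain kinases, Mylk, Mylk2, Mylk3 and Mylk4, were followed through 20 mouse RNA-seq libraries. Mylk2 was chosen by the measured contrast between tumors and normal kidneys, in which it had the largest rise of any protein-coding gene. Mylk, Mylk3 and Mylk4 entered as its paralogs, whatever their own values. These are 4 of the 54532 genes in the deposited count table, and 2 of the 4, Mylk and Mylk2, passed the low-count filter that left 15354 genes for testing.

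The libraries came from 10 kidney tumors and 10 normal kidneys of C57BL/6 mice, one library per sample. According to the study's methods, all of the animals carried a Lox-STOP-Lox Cas9-EGFP cassette at Rosa26 (LSL-Cas9/+) and a Cre transgene under the Pax8 promoter (Pax8 Cre/+), which is active in tubular epithelium, so Cas9 was confined to cells with a Pax8 history. An adeno-associated virus without Cre, with guide RNAs against Vhl, Pbrm1, Keap1 and Tsc1, was injected into the kidney of male and female mice aged 8 to 12 weeks. Both groups came from 1 cohort of 10 such animals, so the normal kidneys share the inherited Cas9 and Cre alleles of the tumors. Every tumor began with the same 4 guides, and editing of the 4 target genes can differ between tumor and normal kidney. Total counts per library were 18447394 to 24902973 in tumors and 14737516 to 26679704 in normal kidneys.

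Myosin light chain kinases are calcium- and calmodulin-dependent enzymes that phosphorylate the regulatory light chain of myosin and so promote contraction. Mylk encodes the smooth muscle and non-muscle kinase, which is known in vessel walls and in the contractile cells of the glomerulus. Mylk2 encodes the skeletal muscle kinase and Mylk3 the cardiac kinase. Mylk4 is the least studied of the family. Myosin phosphatase removes the same phosphate.

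Several libraries stood apart before any kinase was considered, and their markers are given first. Levels are in CPM, counts scaled to the library total times its TMM scaling factor. Summed tubule injury markers (Havcr1, Lcn2, Vcam1, Spp1, Krt8, Krt18, Sox9 and Cd44) reached 37107, 49870 and 28520 CPM in normal kidneys 5, 7 and 8, against 2194 to 4389 CPM in the other 7. The same 3 kidneys had the lowest summed proximal tubule markers of their group, at 3577, 2276 and 4810 CPM, where the others had 11027 to 14789. Normal kidney 9 had a TMM scaling factor of 0.749, where the other normal kidneys had 1.03 to 1.14, and its summed podocyte markers were 195 CPM against 760 to 1257. Tumor 7 had 7992 CPM of summed fibroblast markers, where the other tumors had 121 to 566. Distal nephron markers such as Umod, Slc12a1 and Aqp2 marked all 10 normal kidneys, with a summed level of 4092 to 10272 CPM, and summed to 1.98 to 13.0 CPM in the tumors.

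Each kinase gene was first placed on the genome (build mm10, GRCm38), where the spans in the count table equal those of GENCODE. Mylk2 (ENSMUSG00000027470) lies on the plus strand of chromosome 2 from 152911352 to 152923068, with a single annotated transcript of 12 exons and an exon length of 2951 bases. Mylk (ENSMUSG00000022836) lies on the plus strand of chromosome 16 from 34745210 to 35002420. Its 8 annotated transcripts give 11263 bases of exon, and 2 of them are protein-coding, the long Mylk-201 with 32 exons and the short Mylk-203, which covers the 3′ end and has 3. Mylk3 (ENSMUSG00000031698) lies on the minus strand of chromosome 8 from 85324303 to 85386345, with 5 transcripts and 4283 bases of exon. Mylk4 (ENSMUSG00000044951) lies on the minus strand of chromosome 13 from 32700834 to 32783954, with 4 transcripts and 7689 bases of exon. Counts were given per gene, so the transcripts of Mylk could not be separated.

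Mylk2 was nearly absent from normal kidney and present in every tumor. In normal kidneys its counts were 0 to 6 per library, with a median of 1.5 and 18 counts over all 10, and normal kidneys 2, 4 and 8 had none. A count of 0 at these depths allows up to 0.138 to 0.180 CPM in those 3 libraries, the level of 3 counts, for counting error alone. In tumors the counts were 479 to 2253, with a median of 787.5 and 9918 over all 10. The level in tumors was 21.8 CPM at the lowest, 37.2 at the median and 95.5 at the highest, or 48.7 ± 27.5 CPM (mean ± SD, n = 10), against 0.0964 ± 0.109 CPM in normal kidneys (n = 10). Every tumor was above every normal kidney, as for 5.87% of the 15354 genes tested. The fitted log2 fold change was 8.95 ± 0.50 (SE), which describes the contrast Mylk2 was selected on and carries no test.

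The values next to it in the ranking show where the choice fell. Of all tested genes only the antisense transcript 1700027A15Rik had a larger rise, 9.40 on the log2 scale, from 0 CPM in every normal kidney to a mean of 4.23 CPM in tumors, so this fitted value depends on the prior count and is no bound. Just below Mylk2 were Gstm3, a glutathione S-transferase, at 8.88, Serpinb9b at 8.76, Mmp27 at 8.71 and 2610528A11Rik at 8.65.

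Among the tumors, Mylk2 formed no even series. Tumors 2, 9 and 8 had 95.5, 91.9 and 72.0 CPM, and the other 7 had 21.8 to 43.0. Tumor 7, the one rich in fibroblast markers, had the lowest level, 21.8 CPM. In the 3 normal kidneys with high injury markers, Mylk2 had 2, 1 and 0 counts, so Mylk2 was low in those kidneys too.

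**Figure D1:**
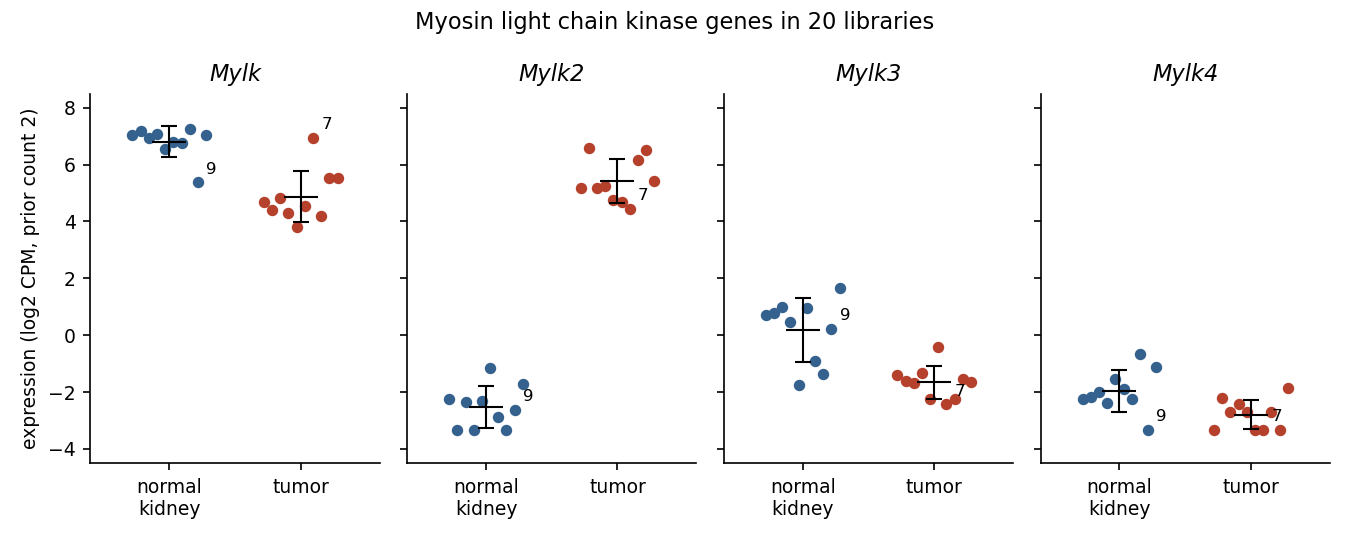
Expression of Mylk, Mylk2, Mylk3 and Mylk4 in each library as log2 CPM with a prior count of 2; each point is 1 library, the bars give mean ± SD (n = 10 per group), and the numbers mark normal kidney 9 and tumor 7. Mylk2 is above every normal kidney in all 10 tumors, while Mylk in the tumors other than tumor 7 is below the kidneys other than normal kidney 9.

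Mylk moved the other way. Normal kidneys had 41.9 CPM at the lowest, 126 at the median and 150 at the highest, and tumors had 13.8, 24.3 and 123 CPM. Normal kidney 9 was the low kidney and tumor 7 the high tumor, and the remaining 9 tumors, at 13.8 to 46.1 CPM, were all below the remaining 9 kidneys, at 94.5 to 150 CPM. The mean was 117 ± 31.7 CPM in normal kidneys and 36.4 ± 32.3 CPM in tumors (SD, 10 libraries a group), 3.22 times as high in normal kidney.

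In the fit across all genes Mylk fell by 1.69 ± 0.34 (SE) on the log2 scale in tumors, with an adjusted p of 0.000333 (edgeR quasi-likelihood test), and 7 of 10 tumors lay under the lowest kidney. Mylk was not below all kidneys in all 10 tumors, a pattern that 4.74% of tested genes had. In the same fit 23.8% of tested genes were lower and 23.6% higher at adjusted p under 0.05. Leaving out tumor 7 alone gave -2.13 for Mylk, and leaving out tumor 7 and normal kidney 9 together gave -2.25 with an adjusted p of 2.5e-08. Fewer cells with Mylk and less Mylk RNA per cell cannot be told apart in these bulk samples.

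Mylk3, the cardiac kinase, was low in both tissues and lower in tumors. Its counts were 4 to 59 in normal kidneys, with a median of 27, and 2 to 12 in tumors, with a median of 4.5, so it did not pass the filter. The level was 0.198 CPM at the lowest, 1.41 at the median and 3.07 at the highest in normal kidneys, and 0.0854, 0.222 and 0.643 CPM in tumors. The mean log2 CPM of Mylk3 differed by -1.84 between tumors and normal kidneys, with a two-sided permutation p of 0.00069, not adjusted for multiple genes. Only 3 tumors were below every normal kidney.

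The overlap in Mylk3 came from 3 kidneys. Normal kidneys 5, 7 and 8, those with high injury markers, had 0.198, 0.438 and 0.293 CPM, within the range of the tumors, and the other 7 had 1.07 to 3.07 CPM, above every tumor. Whether the state of the tubules had a part in the level of Mylk3 was not tested.

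Mylk4 was at the limit of detection throughout. Its counts were 0 to 11 in normal kidneys, with a median of 3, and 0 to 4 in tumors, with a median of 1, and 4 tumors and 1 normal kidney had none. Counts of 0 allow up to 0.122 to 0.189 CPM in those 5 libraries. The highest level was 0.537 CPM, in normal kidney 8. The mean log2 CPM of Mylk4 differed by -0.84 (two-sided permutation p = 0.009, not adjusted), and at this depth the size of that difference depends on the prior count of 2.

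To compare the 4 kinases with each other, levels were divided by exon length. In normal kidneys Mylk had 10.4 ± 2.81 CPM per kilobase (SD, n = 10), Mylk3 0.309 ± 0.205, Mylk2 0.0327 ± 0.0370 and Mylk4 0.0248 ± 0.0203. The levels of Mylk2 and Mylk4 in normal kidney did not differ beyond their spread. In tumors the order was Mylk2 with 16.5 ± 9.31 CPM per kilobase, Mylk with 3.24 ± 2.87, Mylk3 with 0.0568 ± 0.0371 and Mylk4 with 0.00698 ± 0.00757. Ranked per length among the 32383 genes with any count, Mylk2 went from place 23217 in normal kidney to 3130 in tumors, and Mylk from 4398 to 8846.

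The make-up of the family changed accordingly. Mylk gave 93.2% to 99.0% of the length-scaled family total in normal kidneys. Mylk2 gave 40.3% to 94.3% of it in tumors, with a median of 85.8%. The ratio of Mylk2 to Mylk per length was 0.677 in tumor 7, the sole tumor with more Mylk than Mylk2, and 3.56 to 17.1 in the other 9. The family total itself was 3.99 to 13.5 CPM per kilobase in normal kidneys and 10.4 to 35.3 in tumors, and the ranges overlapped. The large share of Mylk2 follows from the contrast it was chosen by.

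**Figure D2:**
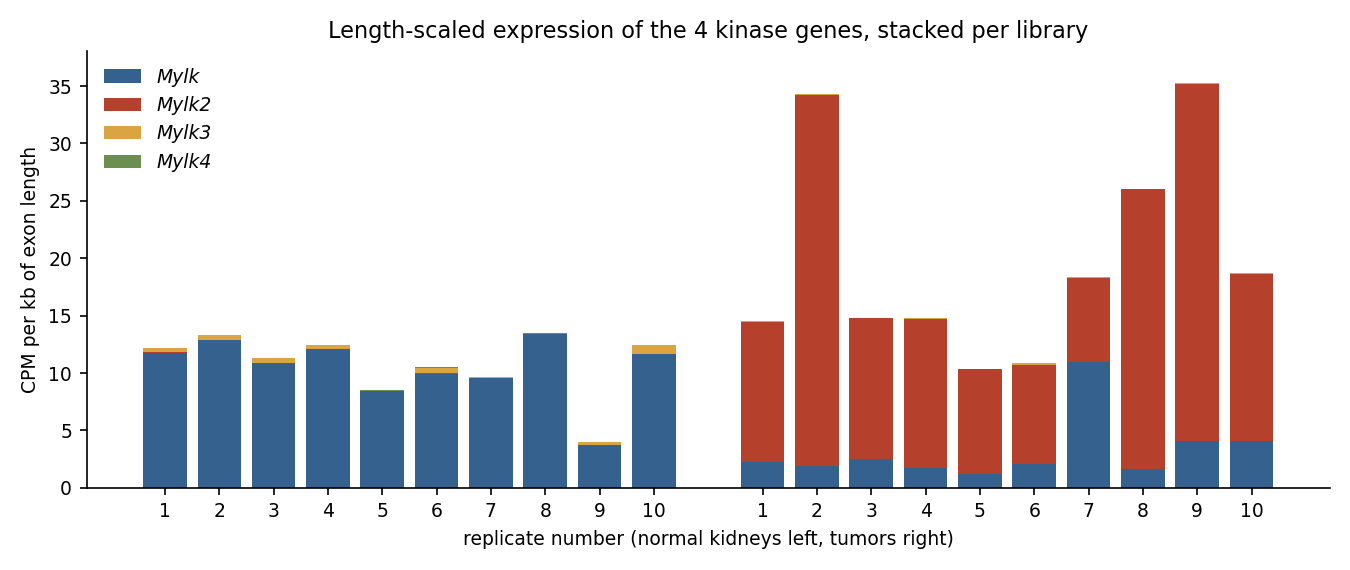
Length-scaled expression (CPM per kilobase of exon) of the 4 kinase genes, stacked for each library, normal kidneys on the left and tumors on the right. Mylk makes up at least 93.2% of each normal kidney's bar, and Mylk2 at least 40.3% of each tumor's.

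Promoter sequences were examined for the genes that were lower in tumors. Of the 4 symbols, 3, all but Mylk2, matched the RefSeq promoter table (GRCm38.p6), Mylk and Mylk4 with 1 window each and Mylk3 with 2. Each window holds 250 bases before and 50 bases after an annotated start site. The Mylk window is chr16:34784700-34784999 on the plus strand and spans the first base of Mylk-201, inside the annotated gene. The Mylk3 windows, both inside the gene and on the minus strand, are chr8:85365275-85365574, at the start of Mylk3-201, and chr8:85380992-85381291. The Mylk4 window is chr13:32783915-32784214 on the minus strand, at the start of the processed transcript Mylk4-202. Sequences read 5′ to 3′ on the gene's strand, with a motif match in capitals:
Mylk: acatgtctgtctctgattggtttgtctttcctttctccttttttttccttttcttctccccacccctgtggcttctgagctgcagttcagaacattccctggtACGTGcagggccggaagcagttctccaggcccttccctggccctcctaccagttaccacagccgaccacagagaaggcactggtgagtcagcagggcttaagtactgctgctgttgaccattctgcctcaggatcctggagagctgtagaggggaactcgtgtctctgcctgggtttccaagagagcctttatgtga
Mylk3, start site 85365324: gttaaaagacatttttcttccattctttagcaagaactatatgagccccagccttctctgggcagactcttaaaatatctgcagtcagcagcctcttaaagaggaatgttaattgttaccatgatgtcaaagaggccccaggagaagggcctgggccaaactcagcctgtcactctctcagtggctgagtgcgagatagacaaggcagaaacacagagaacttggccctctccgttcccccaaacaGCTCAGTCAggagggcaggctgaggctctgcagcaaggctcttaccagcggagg
Mylk3, start site 85381041: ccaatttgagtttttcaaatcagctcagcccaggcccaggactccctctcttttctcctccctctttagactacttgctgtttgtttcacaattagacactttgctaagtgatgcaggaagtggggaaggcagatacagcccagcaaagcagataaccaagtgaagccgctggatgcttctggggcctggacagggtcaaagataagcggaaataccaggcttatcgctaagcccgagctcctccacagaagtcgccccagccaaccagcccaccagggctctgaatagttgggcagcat
Mylk4: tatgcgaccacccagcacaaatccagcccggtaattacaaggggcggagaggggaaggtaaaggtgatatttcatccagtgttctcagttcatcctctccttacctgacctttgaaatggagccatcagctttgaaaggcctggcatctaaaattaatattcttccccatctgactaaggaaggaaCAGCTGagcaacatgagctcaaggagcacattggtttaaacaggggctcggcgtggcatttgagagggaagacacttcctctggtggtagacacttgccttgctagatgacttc

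4 motifs were searched on both strands. ACGTG, the core of the hypoxia response element, was found in the Mylk window 147 bases before the start site, and it occurs in 19.6% of the 32851 windows in the table. TGACNNNGC, the core of the antioxidant response element, was matched on the opposite strand as GCTCAGTCA in the Mylk3 window at 85365324, 4 bases before the start site, and occurs in 12.4% of windows. CAGCTG, the E-box of myogenic factors, was found in the Mylk4 window 64 bases before the start site and occurs in 16.3%. CACGTG, an E-box bound by TFE3 and TFEB that contains ACGTG, was in none of the 4 windows and is in 7.15% of all. A match describes the letters in the window and does not show that a factor binds there.

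Around the kinases, neighboring genes within 250 kb were counted. Mylk2 had 20 neighbors and no overlapping gene, and of the 12 tested 2 were higher and 3 lower in tumors, beside 23.6% and 23.8% of all tested genes. Tpx2, a spindle assembly factor 16.03 kb upstream of Mylk2, went from 3.30 ± 4.86 CPM (median 1.73, with 16.9 in normal kidney 7) to 55.3 ± 27.6 CPM in tumors (SD, 10 libraries a group), and its log2 rise was 4.04 ± 0.55 (SE, adjusted p = 3.9e-06), with no overlap between the groups. Dusp15, a phosphatase 17.9 kb downstream of Mylk2, fell by 5.30 on the log2 scale, from 5.95 ± 3.42 to 0.146 ± 0.180 CPM. Id1, an inhibitor of basic helix-loop-helix factors, fell by 2.61, Ccm2l fell by 0.73, and Tm9sf4 rose by 0.53.

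For the paralogs, counts stand beside 23.6% higher and 23.8% lower of all tested genes. Mylk had 9 neighbors, and 2 of the 4 tested were lower in tumors, where Hacd2 fell by 0.91 and Kalrn fell by 0.63. The 3 antisense genes that overlap Mylk held 299 counts over all 20 libraries, against 31150 for Mylk. Mylk3 had 22 neighbors, of which 10 were tested, with Man2b1 and Vps35 higher and Zfp791 lower. Mylk4 had 13 neighbors, and 4 of the 5 tested were higher, beside 23.6% of all tested genes. These were the serine protease inhibitor genes Serpinb6b, Serpinb9b (up by 8.76 ± 0.51), Serpinb9 (1.68 ± 0.18) and Serpinb1a (1.30 ± 0.27, log2, SE). Serpinb9b, 243 kb from Mylk4, is also among the largest rises named above.

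**Figure D3:**
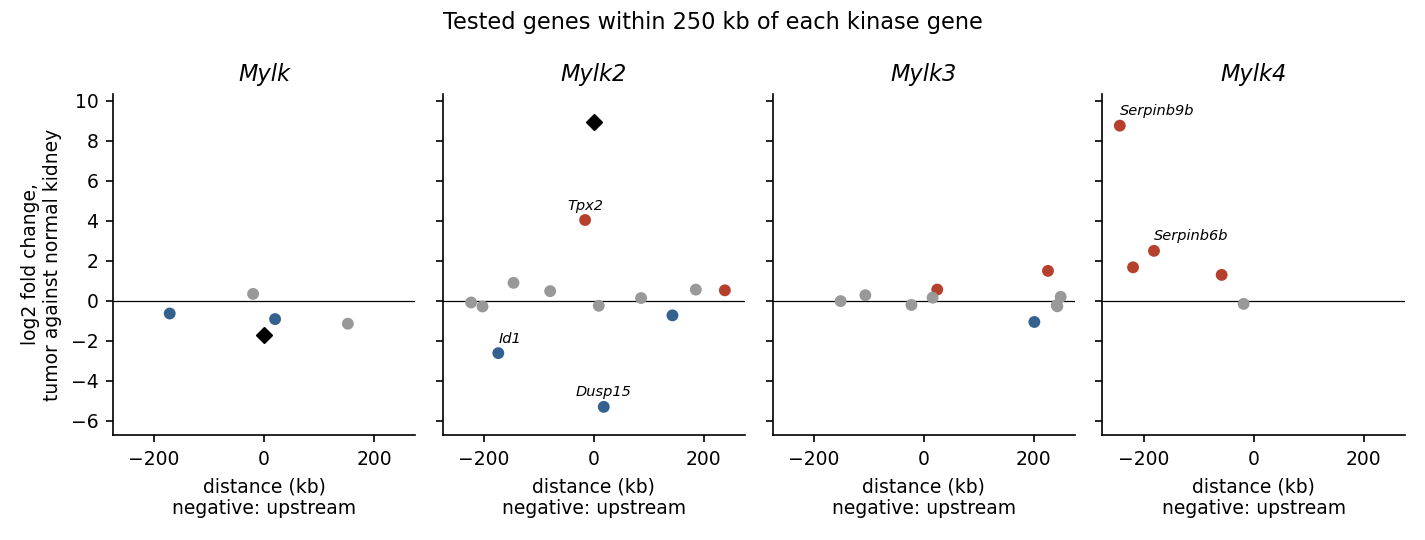
Log2 fold change of the tested genes within 250 kb of each kinase gene against their distance in kilobases, with negative distances upstream on the strand of that gene. Red points are genes higher and blue points genes lower at adjusted p under 0.05, gray points are the others, and black diamonds are the kinases that passed the filter (Mylk -1.69, Mylk2 8.95).

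The substrates of the kinases and the proteins around them were described from 7 lists with 65 genes in all, of which 50 were tested. In tumors 22 of the 50 were higher and 5 lower, beside 23.6% and 23.8% of all tested genes. Their median log2 fold change was 0.39, against -0.02 over all genes. With library totals in place of TMM factors the higher count was 17, and without normal kidneys 5, 7 and 8 it was 24.

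Among 12 myosin light chains, the direct substrates and their relatives, 8 were tested, with a median of 0.22. Beside 23.6% higher and 23.8% lower of all tested genes, 2 were higher and 1 lower. Myl9, the regulatory light chain of smooth muscle, went from 56.9 ± 22.9 CPM in normal kidneys to 19.6 ± 26.5 CPM in tumors (SD), with a median of 11.1 and 92.6 in the highest tumor, and fell by 1.54 ± 0.46 (SE) on the log2 scale (adjusted p = 0.0087), 9 of 10 tumors lying under the lowest kidney. Myl12a, a non-muscle regulatory light chain, rose by 0.56 to 142 ± 20.9 CPM. Myl7, the atrial regulatory light chain, rose by 4.42 ± 0.65 to 12.9 ± 13.0 CPM (adjusted p = 9.2e-06). The most abundant light chain per length was Myl6, the essential light chain of non-muscle myosin, with 132 CPM per kilobase in tumors and 112 in normal kidneys and an adjusted p of 0.269. Mylpf and Myl2, the regulatory light chains of fast skeletal muscle and ventricle, were at 1.20 and 0.0331 CPM in tumors.

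Of 14 myosin heavy chains, 5 were tested and 3 were higher, beside 23.6% of all tested genes, with a median of 0.70. Myh9, the most abundant non-muscle heavy chain, went from 471 ± 207 to 767 ± 223 CPM and rose by 0.70 ± 0.25 (SE) with an adjusted p of 0.024, which became 0.0522 without tumor 7. Myh14, another non-muscle heavy chain, rose by 1.69 ± 0.23 and exceeded the highest kidney in 9 of 10 tumors. Myh7b, a slow sarcomeric heavy chain, rose by 5.43 ± 0.58, from 0.133 ± 0.155 to 6.09 ± 3.03 CPM, with no overlap between the groups. The fast skeletal heavy chain Myh1 had no count in any tumor.

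Among the calmodulins, which activate the kinases, Calm3 rose by 0.69 ± 0.12 and Calm2 fell by 0.81 ± 0.16 (log2, SE). Calml3, a calmodulin-like gene, fell by 6.21 ± 0.57, from a mean of 2.28 CPM in normal kidneys to at most 2 counts in any tumor. The most abundant per length was Calm3, at 169 CPM per kilobase in tumors and 105 in normal kidneys.

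On the opposing side, 7 of 8 genes of myosin phosphatase and its inhibitors were tested, with a median of -0.01. Of these, 3 were higher and 1 lower, beside 23.6% and 23.8% of all tested genes. Ppp1r14d, a gene of the phosphatase inhibitor family, rose by 3.42 ± 0.32, from 1.09 ± 0.651 to 11.7 ± 3.56 CPM, in all 10 tumors. Ppp1r14a, which encodes the smooth muscle inhibitor CPI-17, fell by 1.54 ± 0.48 (adjusted p = 0.0117). Ppp1r12a, the targeting subunit, rose by 0.56 ± 0.19 (adjusted p = 0.0185), and the adjusted p was 0.131 with library totals. Ppp1r14b, of the same inhibitor family and the most abundant of the list, had 121 CPM per kilobase in tumors and 75.7 in normal kidneys and rose by 0.67 ± 0.25 (adjusted p = 0.0284), a call lost in 6 of the 31 alternative fits.

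All 12 other kinases that can phosphorylate myosin light chains were tested, with a median of 0.41. Beside 23.6% higher of all tested genes, 5 were higher, and 7 did not pass the test. Rock2 went from 79.0 ± 36.6 to 168 ± 29.8 CPM and rose by 1.09 ± 0.22 (adjusted p = 0.000424), 8 of 10 tumors lying over the highest kidney. Stk17b rose by 1.18 ± 0.20 and Cdc42bpa, which encodes MRCK alpha, by 0.70 ± 0.15 in each of the 10 tumors beyond the range of the kidneys.

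The titin-like kinases are giant muscle proteins whose kinase domains resemble those of the Mylk family, and not all of the list is reported here. Of those reported, Speg rose by 1.21 ± 0.30 (log2, SE, adjusted p = 0.00203) and Kalrn fell by 0.63 ± 0.19 (adjusted p = 0.00842). Trio, the most abundant of that list per length, was at 3.76 and 3.55 CPM per kilobase in tumors and normal kidneys, with an adjusted p of 0.782.

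**Figure D4:**
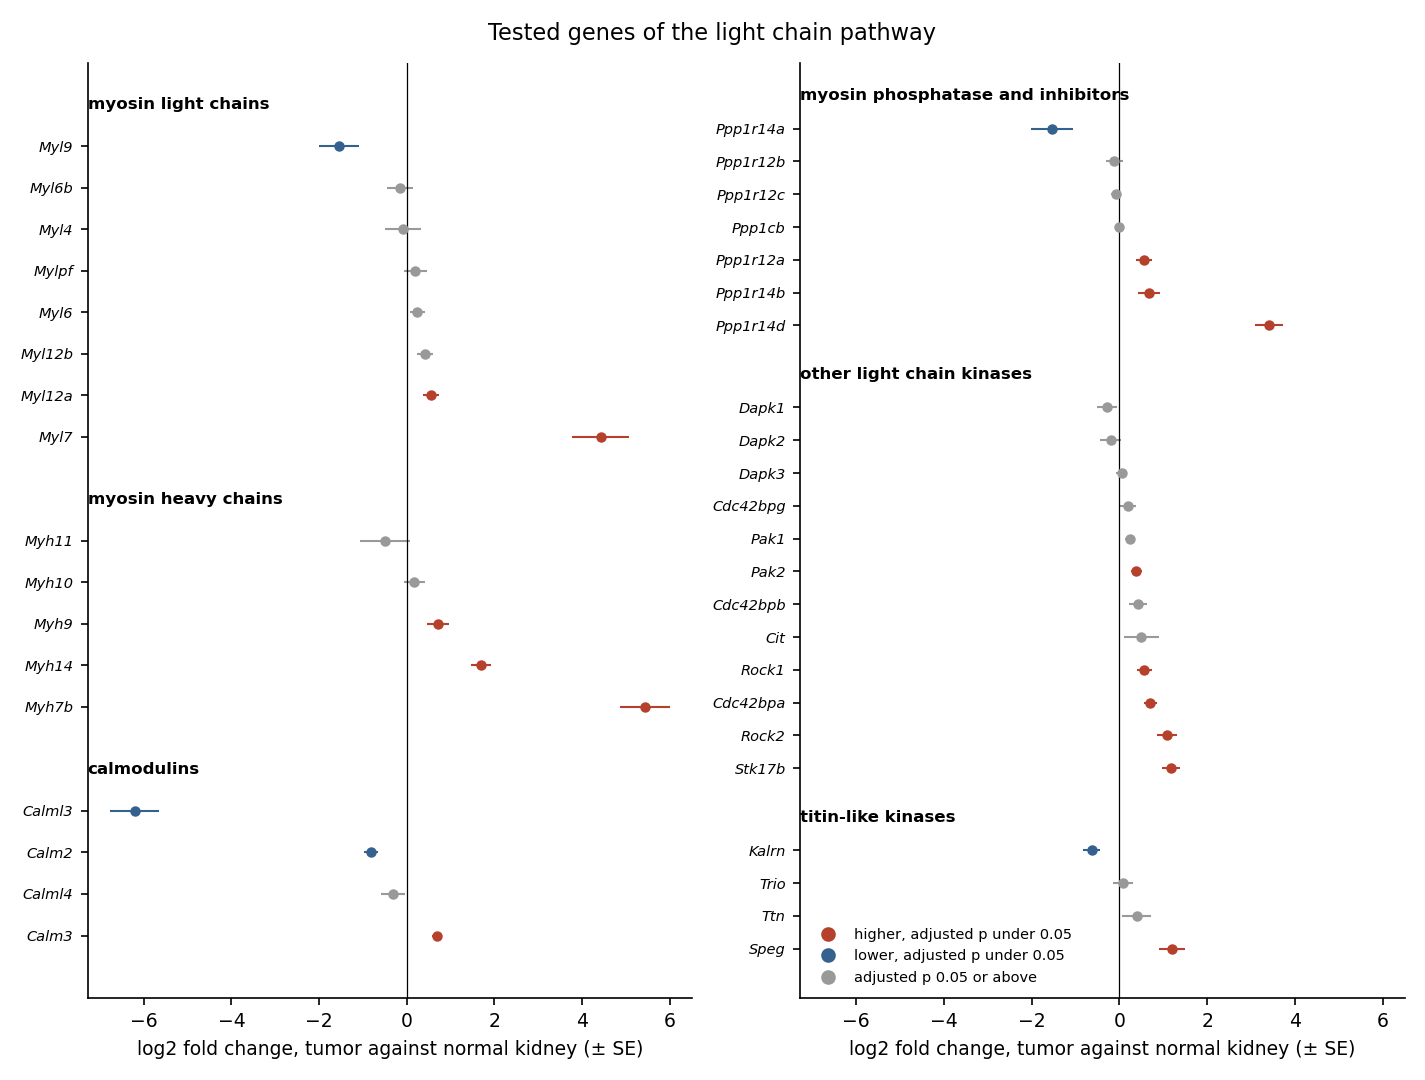
Log2 fold change (tumor against normal kidney, ± SE) of tested genes of the light chain pathway, grouped by list, with genes higher in red and lower in blue at adjusted p under 0.05 and the others in gray. Among the genes shown, Myh7b at 5.43 and Calml3 at -6.21 mark the extremes.

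Since Mylk2 is known from skeletal muscle, the defining genes of skeletal muscle were measured beside it. Of 25 markers, 6 were tested, 2 were higher and 2 lower, beside 23.6% and 23.8% of all tested genes, and the median was 0.29. The myogenic regulators Myod1 and Myog were at 0 in each of the 20 libraries, and 9 of the 25 genes had at most 3 counts in every tumor. The summed level of the list was 19.4 CPM on average in tumors (11.3 to 30.4) and 27.04 CPM in normal kidneys (7.54 to 43.1). Its most abundant gene, Pvalb, is expressed in the distal convoluted tubule as well, and had 15.7 CPM per kilobase in normal kidneys and 0.0101 in tumors. Without Pvalb the list summed to 19.4 CPM in tumors and 10.7 in normal kidneys. Without Acta1 it summed to 8.99 and 26.8 CPM, and without both genes to 8.98 and 10.4. The direction of the sum turned without Pvalb alone and not without both.

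A few sarcomere genes were exceptions. Acta1, skeletal alpha-actin, rose by 5.28 ± 0.41 (SE), from 0.263 ± 0.228 to 10.4 ± 5.77 CPM, in each of the 10 tumors beyond the range of the kidneys (adjusted p = 1.2e-09). Actn3, a Z-disc protein of fast fibers, rose by 2.46 ± 0.56, while Neb, which encodes nebulin, fell by 1.55 ± 0.45 and Pygm, muscle glycogen phosphorylase, by 1.51 ± 0.32. Creatine kinase (Ckm) and myoglobin (Mb) did not pass the filter and averaged 0.0775 and 0.0411 CPM in tumors. Of 12 cardiac markers, 2 were tested and both were higher, beside 23.6% of all tested genes. They were Myl7 and the stretch-responsive gene Ankrd1, which rose by 3.02 ± 0.44 and was the most abundant of its list. The summed level of the cardiac list was 89.5 ± 61.2 CPM in tumors against 12.3 ± 7.37 in normal kidneys. Ankrd1 carried most of it: without Ankrd1 the list summed to 14.8 and 3.11 CPM, and without Myl7 to 76.6 and 11.7. With no low-count filter, 2 of the 12 genes were higher and 1 lower, with a median of -0.05.

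Since Mylk is known from smooth muscle, the smooth muscle and pericyte list was set beside it. Of 14 markers, 13 were tested. Beside 23.6% higher and 23.8% lower of all tested genes, 1 was higher and 12 did not pass the test, with a median of -0.08. That outcome depends on the fit. Without tumor 7, 7 of the 13 were lower and 1 higher, with a median of -0.79. With tumor 7 kept, 5 were lower with the replicate number of the labels as a block (median -0.71), 5 with DESeq2 and 4 with limma-voom, other fits for counts. The mean log2 CPM of the 13 genes was 5.69 in tumor 7, 4.84 in tumor 9 and 3.78 in tumor 1. It was 2.90 to 3.34 in the other 7 tumors, where normal kidney 9 had 3.05 and the other kidneys 3.71 to 4.28. Acta2, the most abundant of the list, stood at 83.0 ± 51.1 CPM in normal kidneys and 78.6 ± 147 in tumors (adjusted p = 0.923), and tumor 7 held 494 CPM. Cspg4, a pericyte proteoglycan, rose from 28.6 ± 12.3 to 347 ± 121 CPM (adjusted p = 1.6e-09). The summed level of the list was 717 ± 295 CPM in tumors against 401 ± 78.3, and Cspg4 carried the difference: the other 13 genes summed to 370 ± 314 CPM in tumors, with a median of 255, and 372 ± 68.6 CPM in normal kidneys, with a median of 371.

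Over the 10 tumors, Mylk rose and fell with this list. The correlation of Mylk with the mean log2 CPM of its 13 tested genes was r = 0.88 (permutation p = 0.00247, adjusted p = 0.0123 over the 5 relations examined) and rho = 0.89 (permutation p = 0.00107, adjusted p = 0.00535). Without tumors 7 and 9, the farthest from the median, r was 0.46 (exact permutation p = 0.241, n = 8). Leaving out tumor 7 alone gave r = 0.67 with an adjusted p of 0.206, and leaving out tumor 9 alone gave r = 0.89 with an adjusted p of 0.0739. In normal kidneys Mylk gave r = 0.64 (permutation p = 0.0988, adjusted p = 0.247) and rho = -0.32 (permutation p = 0.368, adjusted p = 0.747), and r was -0.64 without normal kidneys 7 and 9 (exact permutation p = 0.0876, n = 8).

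For Mylk2, no relation in tumors passed the test. Against the smooth muscle and pericyte list Mylk2 had r = -0.12 (permutation p = 0.783, adjusted p = 0.966) and rho = -0.08 (permutation p = 0.839, adjusted p = 0.839), and r = -0.12 without tumors 7 and 9 (exact permutation p = 0.770, n = 8). Against proximal tubule markers it had r = -0.02 (permutation p = 0.966, adjusted p = 0.966) and rho = 0.27 (permutation p = 0.448, adjusted p = 0.747), and r = -0.07 without the same tumors (exact permutation p = 0.863, n = 8). Against Mylk it had r = -0.19 (permutation p = 0.607, adjusted p = 0.966) and rho = -0.14 (permutation p = 0.708, adjusted p = 0.839), and r = 0.41 without tumors 7 and 10 (exact permutation p = 0.328, n = 8). With 10 tumors a weak relation would not be resolved.

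**Figure D5:**
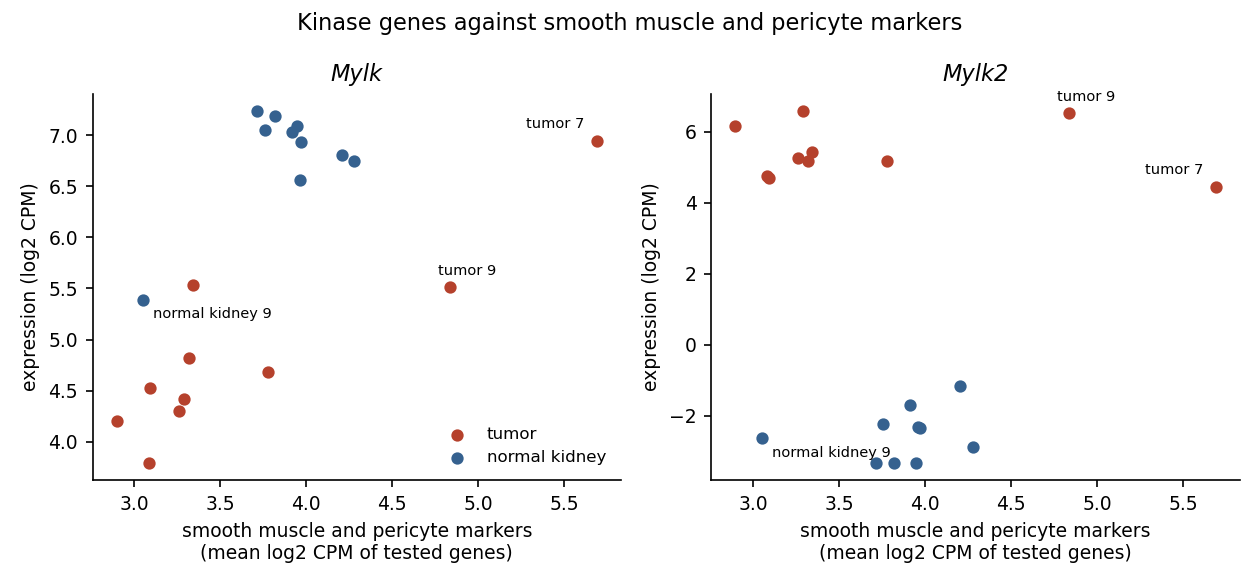
Mylk (left) and Mylk2 (right) in log2 CPM against the mean log2 CPM of the 13 tested smooth muscle and pericyte markers; each point is 1 library, tumors in red and normal kidneys in blue. Across tumors Mylk follows the markers (r = 0.88, or 0.46 without tumors 7 and 9), and Mylk2 has r = -0.12.

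Markers of other cell types were counted beside the 23.8% lower and 23.6% higher of all tested genes. Of 9 podocyte markers, 6 were lower and 1 higher in tumors, with a median of -2.93 and a summed level of 473 ± 34.8 CPM against 833 ± 264 in normal kidneys. Podxl, the most abundant, fell by 2.93, Nphs1 fell by 5.95 and Clic5 rose by 1.19; without Clic5 the list summed to 230 and 727 CPM. Of 9 endothelial markers, 3 were lower and 1 higher, close to the share over all genes, with a median of -0.33 and summed levels of 675 ± 249 and 742 ± 71.5 CPM. Over the alternative fits 2 to 5 were lower, with 5 without tumor 9. None was higher with library totals, with the replicate block, or without tumor 7 and normal kidney 9. In the main fit Cdh5 was the 1 gene higher, and Tek, which fell by 1.70, Ehd3 and Flt1 were the 3 lower. Plvap, the most abundant, had an adjusted p of 0.652. Whether podocytes, vessels or other Mylk-bearing cells were fewer in the tumors, and what part that had in the fall of Mylk, was not tested.

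Tubule genes marked the contrast between the tissues in which Mylk2 rose. All 7 distal nephron markers were lower, beside 23.8% of all tested genes, with a median of -11.26. Umod, the most abundant, fell by 11.87 ± 0.80 (SE). Of 11 proximal tubule markers, 6 were lower and 5 did not pass the test, with a median of -1.15, a summed level of 5999 ± 2559 CPM in tumors against 10350 ± 4855, and Miox, the most abundant, fell by 3.24. With the replicate block, 7 of the 11 were lower and 1 was higher, with a median of -1.03. Of 8 injury markers, 3 were higher and 2 lower, with a median of 0.76 and summed levels of 17196 ± 8314 and 13829 ± 17775 CPM, or 933 and 1315 CPM without Spp1. The medians of the sums were 14750 CPM in tumors and 3973 in normal kidneys. Without Spp1 these medians were 995 and 309 CPM, the other direction from the means. The calls and the median fold change depend on the fit: 5 were higher with the replicate block (median 1.66) and with limma-voom (1.57), 6 with its quality weights (2.18), and 2 with library totals (0.66). Without normal kidneys 5, 7 and 8, 6 were higher and 1 lower, with a median of 2.22. In the main fit the 3 higher were Vcam1, Cd44 and Krt8, and the 2 lower were Lcn2 and Krt18. The call of Lcn2 was lost without normal kidneys 5, 7 and 8. Vcam1 rose by 1.93 ± 0.17 in each of the 10 tumors beyond the range of the kidneys, and Spp1, the most abundant, had an adjusted p of 0.617.

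Fibroblast and immune counts stand beside 23.6% higher and 23.8% lower of all tested genes. Of 7 fibroblast markers, 1 was lower and 6 did not pass the test, with a median of 0.74. Without tumor 7, 3 were lower and the median was -0.46, while without normal kidney 7, 2 were higher and 1 lower (median 0.68), and without normal kidneys 5, 7 and 8, 2 were higher and 0 lower (median 0.58). With the replicate block the median was -0.23, so the sign of the median changed with the fit. The mean log2 CPM of the list was 8.66 in tumor 7, 5.74 and 5.13 in tumors 9 and 10, and 3.46 to 4.41 in the others, where the kidneys had 4.47 to 6.03. Pdgfra fell by 1.62 ± 0.61 with an adjusted p of 0.034, which was 0.106 without normal kidneys 5, 7 and 8. Col3a1, the most abundant, had 4242 CPM in tumor 7 and a median of 71.9 CPM over the tumors. Of 7 immune cell markers, 5 were tested and 2 were higher, Csf1r by 0.89 ± 0.22 and Adgre1 by 1.04 ± 0.32, with a median of 1.00, or 0.46 without tumor 7. The most abundant, C1qa, had an adjusted p of 0.0601. The summed level of the immune list was 657 CPM in tumor 7, where Mylk2 was lowest and Mylk highest among the tumors, and 128 to 331 CPM in the others.

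Genes whose levels followed the kinases most closely over the 10 tumors were taken from the 13769 tested genes with a mean of at least 1 CPM in tumors. Closest to Mylk2 were Nemp2 (r = 0.915), Pcgf3 (r = 0.871), Tbcc (r = 0.849), Kat5 (r = 0.845) and Ppip5k2 (r = 0.824), where the median r over all genes was 0.0088. Closest to Mylk were Maged2 (r = 0.986), Heg1 (r = 0.980), Adamtsl1 (r = 0.977), Cbx6 (r = 0.975) and Mbnl1 (r = 0.973), where the median was -0.14. Without tumor 7 the correlation of Mylk with Maged2 was 0.959, and that of Mylk2 with Nemp2 was 0.914. These genes were selected for their r from the 13769, over 10 tumors with tumor 7 among them, so the values are a description.

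How the scaling was chosen bears on the counts more than on the kinases. With library totals or upper quartile factors, the median change over all genes moved by -0.12 (log2), and the higher genes made up 38.5% and 39.2% of those called, against 49.8% with TMM. Mylk was at -1.77 and -1.78 and Mylk2 at 8.84 and 8.83 under these scalings.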

How the data were processed

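The authors deposited raw read counts per gene for poly(A)-enriched RNA from 10 tumors and 10 normal kidneys, made by a sequencing company (build mm10 per the labels); the aligner, the counter and the strand of the libraries were not stated. The deposited table also gives a gene length, a column of kind other, the exon length of each gene in bases. Counts ran from 14737516 to 26679704 per library, and floors of 3 counts cover counting error only. Libraries were grouped by the labels.

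Tumors and normal kidneys were compared with the quasi-likelihood test of edgeR 4.0.16 in R 4.3.3 (TMM factors, filterByExpr with a count minimum of 10), with Benjamini-Hochberg adjustment over all 15354 genes tested and a threshold of 0.05. SE of a log2 fold change is its size over the square root of F. Levels are CPM with TMM factors, and log2 CPM uses a prior count of 2. Members below the filter were tested on mean log2 CPM by a two-sided permutation test with 100000 resamples (scipy 1.17.1; exact where a group held fewer than 10). Correlations were computed within a group, over 5 relations, with permutation p-values and adjustment over the 5. The fit was checked on simulated data.

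Named genes were the 4 kinases; of each list the up to 4 called genes with the largest rise and the up to 4 with the largest fall, and its most abundant member per length; neighbors within 250 kb; the 5 genes with the highest r to Mylk2 and to Mylk; and the largest rises beside Mylk2. Myl2, Mylpf, Myh1, Ckm, Mb, Myod1 and Myog were named after their values were seen, as defining muscle genes. The lists hold myosin light chains, myosin heavy chains, calmodulins, myosin phosphatase and inhibitors, other light chain kinases and titin-like kinases, and markers of skeletal muscle, cardiac muscle, smooth muscle and pericytes, podocytes, endothelium, fibroblasts, immune cells, proximal tubule, distal nephron and tubule injury. Of the 7 pathway lists, 1 list and single genes of others enter the summed counts but are not reported here. The members and lists were chosen with earlier results of these data known.

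Motifs were searched on both strands of RefSeq promoter windows (GRCm38.p6). Alternatives were library totals, RLE and upper quartile factors, no filter or 1 CPM in 10 libraries, DESeq2 1.42.0, limma-voom 3.58.1 with and without quality weights, the replicate number as a block, each library left out in turn, tumor 7 and normal kidney 9 left out together, and, chosen after seeing the data, normal kidneys 5, 7 and 8 left out together. No label says that equal numbers mark 1 mouse, so samples were not paired.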

Additional observations from a re-analysis of the deposited data

Results flagged for a closer look

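Within each group of 10 libraries, the values of the named genes and of the list means were searched for a library far from the others, one whose gap to the nearest library exceeded Dixon's limit for 10 values. This gave 49 values over 186 groups, where chance gives about 1 in 20 groups. Levels below are log2 CPM, and no cause was tested.

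Of the 49, 24 were in normal kidney 9, which was the lowest of its group for Mylk, at 5.39 where the next kidney had 6.56. It was also the lowest for the kinases Rock1 (4.21), Rock2 (4.54), Cdc42bpa (4.90), Cdc42bpb (4.68), Speg (2.11), Trio (3.73) and Kalrn (3.15). The same held for Myh9 (6.80), Ppp1r12a (3.91), Neb (-2.62), Flt1 (4.85) and the podocyte genes Nphs1 (1.93), Podxl (5.79) and Ptpro (1.24). Among list means it was the lowest for myosin heavy chains (2.80), other light chain kinases (4.41), smooth muscle and pericyte markers (3.05), podocyte markers (3.74) and endothelial markers (5.44). It was the highest for Myl6 (9.65), C1qa (6.90), the mean of myosin light chains (3.95) and that of immune cell markers (4.52).

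Tumor 7 gave 11 values. It was the highest tumor for Calm2 (7.55), Myh9 (10.38), Ppp1r14b (7.21), Acta2 (8.95), Cd44 (7.52), Cdkn1c (3.49), Pdgfra (7.02), Col3a1 (12.05) and the mean of fibroblast markers (8.66), and the lowest for Clic5 (6.23) and Man2b1 (7.81). Mylk in tumor 7 did not pass the limit.

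Normal kidney 7 gave 6 values. It was the highest kidney for Tpx2, the neighbor of Mylk2 (4.09), and for Cd44 (4.96) and Col3a1 (9.31), and the lowest for Ccm2l (2.24), Slc22a8 (5.69) and Slc5a2 (5.67). Normal kidney 6 was the highest for Acta1 (-0.055), and normal kidney 5 the lowest for Ppp1r14a (-0.16) and Adgre1 (0.88). Tumor 9 was the highest tumor for Ppp1r12a (6.85) and the lowest for Speg (2.17) and Zfp791 (-0.67). Aqp1 was highest in tumor 4 (8.29), and Pvalb in tumor 3 (-2.28), the single tumor with any of its counts.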

How the results depend on the processing

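Mylk was lower in tumors at adjusted p under 0.05 in all 31 alternative fits, from -2.28 (limma-voom with quality weights) to -1.58, with adjusted p from 4.7e-11 to 0.00166. Mylk2 lay between 8.63 and 9.37, Mylk3 between -2.40 and -1.67 and Mylk4 between -1.71 and -0.62, DESeq2 and limma giving no value for Mylk3 and Mylk4, which failed the filter. The range of Mylk3 leaves out the fit without normal kidneys 5, 7 and 8, which were chosen after its values were seen and where it passed the filter through the kidneys that had it high. Without a filter Mylk3 was at -2.40 (adjusted p = 0.000295) and Mylk4 at -1.71 (adjusted p = 0.0497). Of 64 other named genes, 55 kept their call throughout, 9 lost it in some fit and 0 reversed. Krt8 lost it in 20 of the 31 fits, Flt1 in 19, Pdgfra in 11, Ppp1r14b in 6, Cdh5 in 3 and Myh9 in 3. Ppp1r12a lost it with library totals and upper quartile factors, Rock1 with library totals, and Lcn2 without normal kidneys 5, 7 and 8. The marker lists were followed through the same fits after the data were seen. Smooth muscle and pericyte markers had 0 genes lower in the main fit, 5 with DESeq2, 4 with limma-voom, 7 with its quality weights, 5 with the replicate block and 7 without tumor 7, and their median was -0.52 to -0.86 in these alternatives. The fibroblast median was -0.35 with DESeq2, -0.013 and -0.57 with limma-voom without and with quality weights, -0.23 with the replicate block and -0.46 without tumor 7. Injury markers had 2 to 6 genes higher over the fits, with a median from 0.56 to 2.22, and endothelial markers 2 to 5 lower. The lower pathway count was 9 instead of 5 with limma-voom quality weights; the cause was not tested.

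Relations moved more. Mylk2 against proximal tubule markers had rho = 0.27 and r = -0.02 over the 10 tumors. Its r was -0.48 to 0.38 when single tumors were left out, passing 0 without tumor 1 (0.0047), tumor 4 (0.0097), tumor 5 (0.036), tumor 6 (0.017), tumor 8 (0.037) or tumor 9 (0.38). Mylk2 against smooth muscle and pericyte markers was 0.020 with library totals and -0.47 to 0.43 with single tumors left out. Mylk2 against Mylk was 0.41 without tumors 7 and 10 and -0.38 to 0.31 with single tumors left out. Mylk against smooth muscle and pericyte markers was 0.46 in tumors without tumors 7 and 9, and 0.67 to 0.95 with single tumors left out, and without tumor 9 it was 0.89 with an adjusted p of 0.0739. In normal kidneys Mylk against these markers had rho = -0.32 and r = 0.64. Its r was -0.64 without normal kidneys 7 and 9, and -0.69 to 0.73 with single kidneys left out. The lowest was without normal kidney 9, and the cause was not tested.

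With the replicate number as a block, 3979 genes were higher and 3886 lower, Mylk was at -1.98 (adjusted p = 0.00052) and Mylk2 at 8.80. In 9 of 10 pairs the centered profiles of a tumor and the kidney of its number correlated above 0.1 (from -0.14 in the lowest pair to 0.377). Without pair 9 the lowest was 0.191. Of the 10 tumors, 8 correlated best with the kidney of their own number, and of the 10 kidneys, 5 with the tumor of theirs. No label says what the number means. At these depths Mylk4 and the level of Mylk2 in normal kidney cannot be resolved beyond a few counts.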
